A study of Mus musculus with 4 samples.

Results

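The genes that make, destroy and read cyclic nucleotides were followed in cardiac fibroblasts undergoing direct reprogramming. They were the adenylyl cyclases (Adcy), the cyclic nucleotide phosphodiesterases (Pde), the subunits of protein kinase A (Prkar, Prkac) and the A-kinase anchoring proteins (Akap). Members were chosen by symbol alone, and 40 of the 16383 genes in the count table met the rule. These were 9 synthesis genes, 16 breakdown genes, 4 kinase genes and 11 anchor genes. The table covers 16 chromosomes, number 6 only in part. Family members elsewhere, Adcy7, Pde4a, Akap13, Prkaca and Prkar2a among them, were not analysed here.

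Cells given a hairpin against Nr4a3 were compared with cells given a control hairpin. The shNr4a3 group received Mef2c, Gata4 and Tbx5, together called MGT, with a hairpin against Nr4a3, a nuclear receptor of the NR4A family. The shNT group received the same 3 factors with a non-targeting hairpin. Both groups were primary heart fibroblasts of wild-type mice aged 3 months, taken on day 7 of reprogramming, with 2 libraries each. Neither the number of animals behind a library nor a separate culture for each replicate is stated, so p-values speak only for the spread among these 4 libraries, and that spread may be technical. The means of delivery of factors and hairpins, and the cells that took them up, were not given. No untreated fibroblasts, and no cells without MGT, are part of the comparison. The study asked on what molecular basis the knockdown improves reprogramming.

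Cyclic AMP is made by adenylyl cyclases, most of them membrane-bound and answering to G protein-coupled receptors, and phosphodiesterases remove it by hydrolysis. It acts mainly by releasing the catalytic subunits of protein kinase A from their regulatory subunits, while anchoring proteins hold the kinase beside its substrates together with phosphodiesterases and phosphatases. In cardiomyocytes this pathway carries the beta-adrenergic control of calcium cycling and contraction, and in cardiac fibroblasts raised cyclic AMP is known to restrain activation to myofibroblasts.

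Nr4a3 checked the labels, with 18 and 32 counts under shNr4a3 and 356 and 353 under shNT (log2 fold change -3.86, edgeR adjusted p = 2.65e-06). Mef2c, Gata4 and Tbx5, the factors given to both groups, were lower under shNr4a3, and the groups did not overlap. Their log2 fold changes were -0.58, -0.39 and -0.39 (edgeR adjusted p = 0.00216, 0.00312 and 0.00572). Reads were counted per gene, so delivered transcripts and those of the cells' own genes cannot be told apart. The part of these factor levels in the results that follow was not tested. Total counts ran from 28220440 to 30976450 per library, and 1 count was worth 0.0326 to 0.0350 CPM (the count scaled by library size). Of 10736 genes tested, 60.2% were called at an adjusted p under 0.05, with 30.7% higher and 29.4% lower, so calls were common. All 8 fibroblast markers looked for were detected. Of these, 5 were lower under shNr4a3 (Pdgfra by a log2 fold change of -2.26), 2 were higher and 1 did not pass. Markers of other cells moved as well. Of 6 smooth muscle and mural markers, 5 rose and 1 fell, and their summed level was 2508 to 2667 CPM under shNr4a3 and 831 to 869 CPM under shNT. Of 8 macrophage markers, 6 fell and 0 rose (25.2 CPM in both shNr4a3 libraries and 46.9 to 60.5 CPM under shNT in sum). Of 7 endothelial markers, 2 rose and 3 fell (89.3 to 100.6 CPM under shNr4a3 and 97.8 to 115 CPM under shNT). Among those that fell, Cldn5 passed the filter on low counts through shNT alone. Of 8 cardiomyocyte markers, 5 rose and 2 fell, and their sum, mostly Tnnt2, was 7673 to 8647 CPM under shNr4a3 and 13376 to 15600 CPM under shNT. The 1 Schwann and neural marker that could be tested did not pass (0.629 to 0.977 CPM under shNr4a3 and 0.753 to 0.840 CPM under shNT for that list in sum). No marker in these lists that the table holds was at 0 in all 4 libraries. The part of these shifts in the results that follow was not tested, and in bulk RNA fewer cells of a type and less RNA per cell cannot be told apart.

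Most of the pathway differed between the hairpins, and it went both ways. Of the 40 members, 36 passed the filter on low counts. Among these, 14 were higher under shNr4a3, 13 were lower and 9 did not pass, which is 75.0% called beside 60.2% of all genes tested. The median log2 fold change was -0.21 over the members tested and 0.02 over all genes. With a log2 fold change of at least 1 in size also required, 7 members were higher and 7 lower, beside 12.9% and 13.4% of all genes (26.3% in either direction). Groups did not overlap in CPM for 34 of the 36, beside 81.0% of all genes tested. Adcy8 passed the filter only through its shNr4a3 libraries and Pde6b only through its shNT libraries, so a difference was built into their being tested. Of the other 34, 13 were higher and 12 lower. The remaining 4 members held few counts: Adcy10 (6 and 27 under shNr4a3, 7 and 6 under shNT), Pde6a (1 and 4 under shNr4a3, 0 and 0 under shNT), Pde11a (2 and 0 under shNr4a3, 4 and 0 under shNT) and Pde6c (0 in every library).

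**Figure D1:**
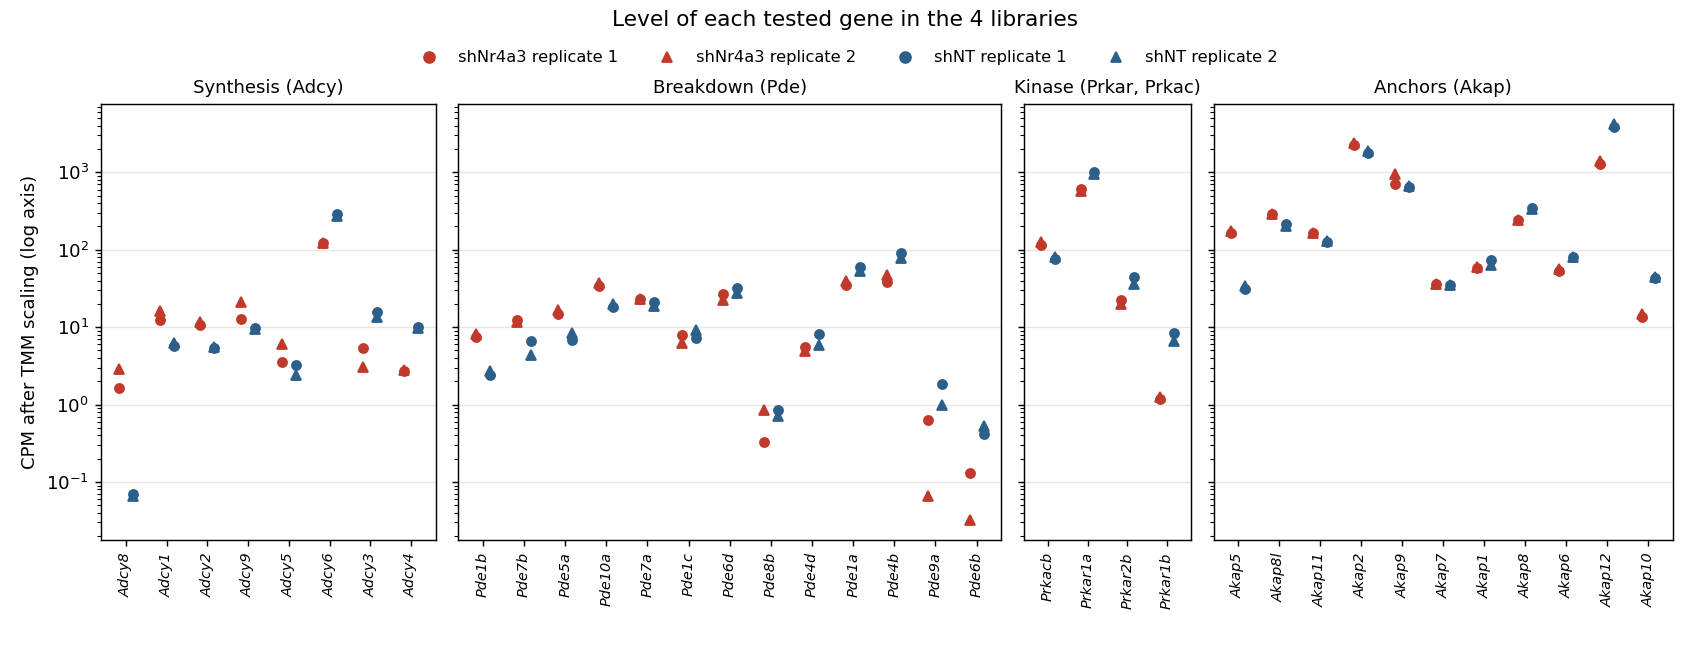
Level of the 36 tested members in each library, as CPM after TMM scaling on a log axis; red marks shNr4a3 and blue shNT, circles replicate 1 and triangles replicate 2. Akap2 and Akap12 lie highest in both groups, and Adcy8 and Akap5 show the widest gaps with shNr4a3 on top.

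Promoter windows from RefSeq (GRCm38.p6, the same assembly as mm10, 250 bases before to 50 after a start) were at hand for 32 of the 40 members, 64 windows in all. They are shown because CREB, the transcription factor that protein kinase A phosphorylates, and the NR4A receptors bind known DNA motifs. The full cAMP response element, TGACGTCA, stood in 2 overlapping windows of a single member, Prkar1a (588 of all 32851 windows, 1.79%). Its core TGACG, which the full element contains, was found on either strand in 11 member windows of 9 genes (17.2% of member windows, against 20.8% of all windows). The NR4A monomer site AAAGGTCA was in 0 member windows and in 1.51% of all windows. AGGTCA, a nuclear receptor site contained in that motif, was in 8 member windows (12.5%, against 16.3% of all windows). A match describes letters only, and no binding was measured here. The windows below are 1 each of the regulatory subunit and the catalytic subunit of the kinase, of the most changed abundant phosphodiesterase, Pde4b, and of Akap10, the anchor with the deepest fall, all called below. Each is the first window of its gene that holds the marked motif, so it was picked for holding it. Prkar1a, Pde4b and Prkacb have 5, 3 and 2 other windows, and Akap10 has 0. The Pde4b window lies at a start inside the gene, which begins at 102087543. The windows read 5′ to 3′ on the gene's strand. Capitals mark TGACGTCA in Prkar1a (chr11:109650612-109650911, plus strand), CGTCA, the core on the opposite strand, in Pde4b (chr4:102421305-102421604, plus strand) and Prkacb (chr3:146812897-146813196, minus strand), and AGGTCA in Akap10 (chr11:61930208-61930507, minus strand).
Prkar1a: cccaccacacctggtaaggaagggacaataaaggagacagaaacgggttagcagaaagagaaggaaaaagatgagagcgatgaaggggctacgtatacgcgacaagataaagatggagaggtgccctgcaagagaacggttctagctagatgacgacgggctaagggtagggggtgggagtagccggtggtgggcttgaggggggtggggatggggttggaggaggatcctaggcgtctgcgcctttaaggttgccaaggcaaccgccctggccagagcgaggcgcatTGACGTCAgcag
Pde4b: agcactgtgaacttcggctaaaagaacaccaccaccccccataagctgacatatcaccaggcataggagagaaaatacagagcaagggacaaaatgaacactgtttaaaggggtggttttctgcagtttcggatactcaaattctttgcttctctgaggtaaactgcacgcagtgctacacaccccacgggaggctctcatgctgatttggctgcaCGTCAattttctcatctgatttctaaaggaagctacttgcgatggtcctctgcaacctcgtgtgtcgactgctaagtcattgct
Prkacb: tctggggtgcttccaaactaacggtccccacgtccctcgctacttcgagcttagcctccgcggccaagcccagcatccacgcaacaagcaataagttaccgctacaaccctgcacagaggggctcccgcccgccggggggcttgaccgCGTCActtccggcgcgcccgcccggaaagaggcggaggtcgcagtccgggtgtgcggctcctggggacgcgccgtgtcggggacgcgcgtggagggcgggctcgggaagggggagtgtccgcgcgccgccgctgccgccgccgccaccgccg
Akap10: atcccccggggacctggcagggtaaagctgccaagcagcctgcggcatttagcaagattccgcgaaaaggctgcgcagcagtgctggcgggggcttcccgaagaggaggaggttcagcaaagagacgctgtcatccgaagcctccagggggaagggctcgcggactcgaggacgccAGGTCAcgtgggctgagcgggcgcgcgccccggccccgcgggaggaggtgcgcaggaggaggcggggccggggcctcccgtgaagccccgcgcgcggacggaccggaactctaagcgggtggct

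Among the synthesis genes analysed here, the dominant cyclase fell while several scarcer ones rose. Of 8 tested, 4 were higher, 3 lower and 1 did not pass (median log2 fold change 0.79). That is 87.5% called, beside 60.2% of all genes tested. Among the higher ones, Adcy8 passed the filter on low counts through shNr4a3 alone. Adcy6, a calcium-inhibited cyclase and one of the main forms of the heart, spans 98589973 to 98610076 of chromosome 15 (minus strand, mm10). Its level was 121 and 124 CPM under shNr4a3 and 291 and 275 CPM under shNT. Both knockdown libraries were below both controls, and Adcy6 fell by 1.21 on the log2 scale (SE 0.0770, edgeR adjusted p = 1.64e-06). Per kilobase of exon it was the most abundant of the 9 cyclases analysed in every library. It made up 70.2% and 65.3% of their summed level under shNr4a3, against 83.6% in both shNT libraries. Adcy7 was not analysed here, so rank and shares hold among these 9 only.

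Adcy3 and Adcy4 also fell. Adcy3, the cyclase of olfactory signalling that is also found on primary cilia, had 5.399 and 3.03 CPM under shNr4a3 and 15.6 and 13.5 CPM under shNT (log2 fold change -1.79, SE 0.246, edgeR adjusted p = 2.13e-04). Its exons overlap those of Cenpo on the opposite strand, which was also lower (log2 fold change -0.75), and with the strand setting of the counts not given the reads of both cannot be told apart. For Adcy4, a cyclase stimulated by G protein beta-gamma subunits, the levels were 2.68 and 2.83 CPM under shNr4a3 and 10.1 and 9.68 CPM under shNT (log2 fold change -1.84, SE 0.192, edgeR adjusted p = 3.59e-05).

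Cyclases that rose were scarce ones. Adcy8, a cyclase stimulated by calcium and calmodulin and best known from neurons, had 50 and 88 counts under shNr4a3 and 2 in each shNT library. That is a ratio of 33.5 with an exact 95% counting interval of 12.8 to 125 (edgeR adjusted p = 1.63e-04), at no more than 2.87 CPM. Adcy8 passed the filter on low counts through shNr4a3 alone, so a difference was built into its being tested. Adcy1, a neuronal cyclase that calcium and calmodulin also stimulate, reached 12.4 and 16.4 CPM under shNr4a3, against 5.67 and 6.22 CPM under shNT (log2 fold change 1.28, SE 0.181, edgeR adjusted p = 2.53e-04). Both genes were thus higher in each knockdown library than in each control. Adcy2, a close relative of Adcy4, moved opposite to it, with 10.8 and 11.6 CPM under shNr4a3 and 5.32 and 5.53 CPM under shNT (log2 fold change 1.04, SE 0.163, edgeR adjusted p = 4.70e-04).

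For Adcy9, which was called, and Adcy5, which was not, the knockdown libraries lay far apart. Adcy9, the most divergent of the membrane cyclases, had 12.9 and 21.1 CPM under shNr4a3 and 9.81 and 9.55 CPM under shNT (log2 fold change 0.81, SE 0.215, edgeR adjusted p = 0.00938). Without shNr4a3 replicate 2 the log2 fold change was 0.40 and the call was lost (edgeR adjusted p = 0.0714). Adcy5, the nearest relative of Adcy6 and the other main cardiac form, did not pass (3.51 and 6.03 CPM under shNr4a3, 3.22 and 2.39 CPM under shNT, log2 fold change 0.77, edgeR adjusted p = 0.0639). It passed without shNr4a3 replicate 1 (log2 fold change 1.11) and without shNT replicate 1 (0.98). Summed over the 9 cyclases, the level was 28.6 and 31.5 CPM per kilobase under shNr4a3 and 57.8 and 54.7 under shNT. Without Adcy6 the sums overlapped, at 8.53 and 10.9 CPM per kilobase under shNr4a3 and 9.48 and 8.95 under shNT. With 2 libraries against 2, an exact permutation test on a single value cannot go below p = 0.333, and sums are given with no test.

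**Figure D2:**
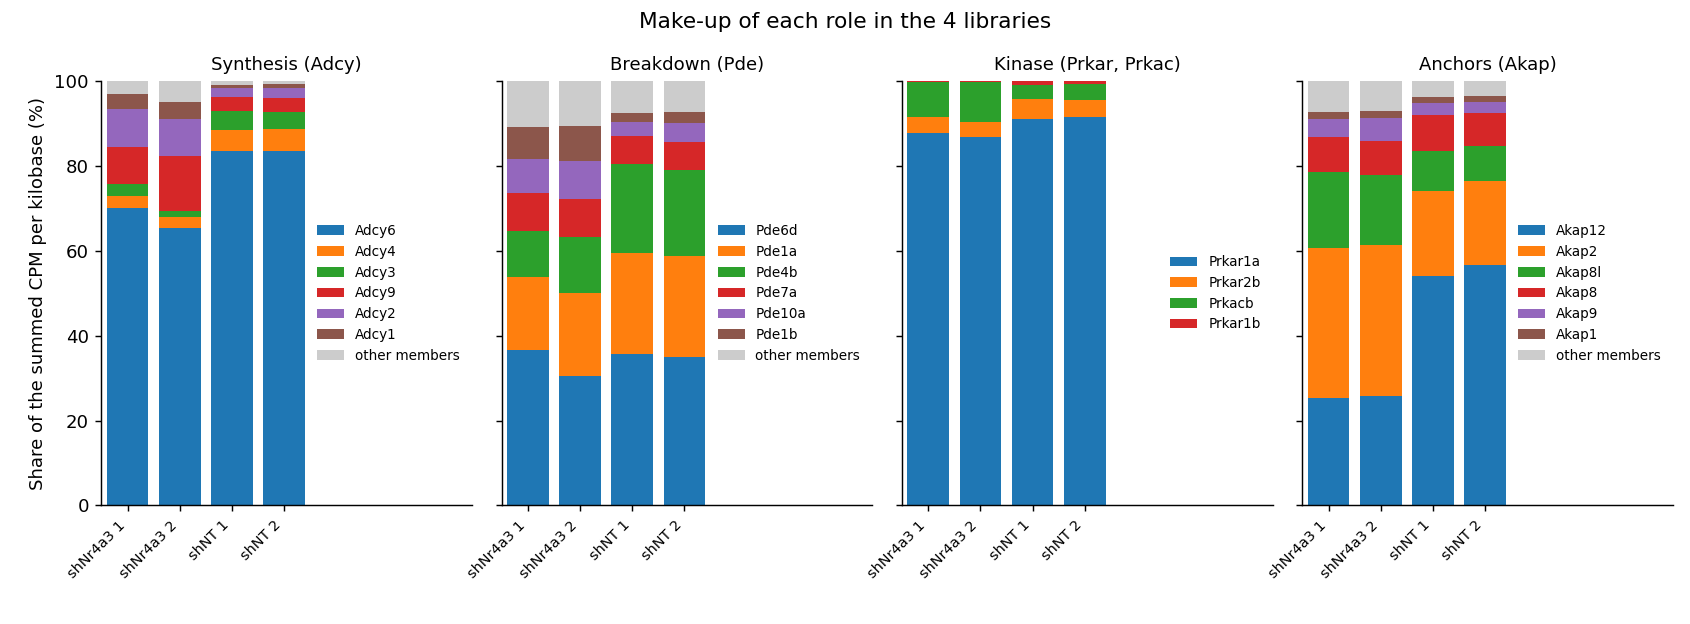
Share of each member in the summed CPM per kilobase of its role, in percent, for the libraries shNr4a3 1 and 2 and shNT 1 and 2; grey joins the members after the 6 largest in shNT. Adcy6 and Akap12 take smaller shares in the shNr4a3 libraries, and Prkacb and Akap2 larger ones.

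Phosphodiesterases moved both ways, with 4 of 13 tested higher, 3 lower and 6 not passing (median log2 fold change -0.30). Among the lower ones, Pde6b passed the filter on low counts through shNT alone. At 53.8% called, this role lay below the 60.2% of all genes. The catalytic members with the largest shares in shNT, Pde1a and Pde4b, both fell. Pde4b, of the cAMP-specific family that rolipram inhibits, is encoded on chromosome 4, 102087543 to 102607259 (plus strand, mm10), and had 38.8 and 46.7 CPM under shNr4a3 and 91.6 and 79.0 CPM under shNT. The groups did not overlap (log2 fold change -0.997, SE 0.117, edgeR adjusted p = 7.78e-05). Pde1a, which calcium and calmodulin activate and which cleaves both cyclic nucleotides, had 34.9 and 39.5 CPM under shNr4a3 and 59.4 and 52.9 CPM under shNT (log2 fold change -0.59, SE 0.106, edgeR adjusted p = 0.00107).

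Among phosphodiesterases that rose, some act on both nucleotides and some on 1 of them. Pde1b, a paralogue of Pde1a with the same activator, moved the other way, with 7.42 and 8.14 CPM under shNr4a3 and 2.38 and 2.75 CPM under shNT (log2 fold change 1.60, SE 0.216, edgeR adjusted p = 1.91e-04). Pde10a, which accepts both nucleotides and is best known from the striatum, had 34.0 and 37.3 CPM under shNr4a3 and 18.2 and 20.2 CPM under shNT (log2 fold change 0.89, SE 0.112, edgeR adjusted p = 1.16e-04). In each of these genes the lower knockdown library still exceeded the higher control. Pde7b, a cAMP-specific enzyme insensitive to rolipram, had 12.3 and 11.7 CPM under shNr4a3 and 6.55 and 4.42 CPM under shNT (log2 fold change 1.13, SE 0.204, edgeR adjusted p = 0.00112). Pde5a, the cGMP-specific target of sildenafil and an enzyme of smooth muscle, had 14.6 and 16.8 CPM under shNr4a3 and 6.76 and 8.31 CPM under shNT (log2 fold change 1.06, SE 0.161, edgeR adjusted p = 3.96e-04). Of 6 smooth muscle and mural markers, 5 were higher in the same libraries, Myh11 and Acta2 among them (log2 fold changes 1.43 and 1.48). The other, Pdgfrb, was lower (log2 fold change -0.67). The part of these markers' cells in the Pde5a result was not tested.

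Other phosphodiesterases did not pass. Pde4d, a paralogue of Pde4b, had 5.46 and 4.92 CPM under shNr4a3 and 8.16 and 5.95 CPM under shNT (log2 fold change -0.44, edgeR adjusted p = 0.108), and passed without shNT replicate 2 (log2 fold change -0.65, edgeR adjusted p = 0.0398). Pde7a and Pde1c, paralogues of called genes, had log2 fold changes of 0.21 and -0.22, and the differences between paralogues were not tested. Pde8b had 0.331 and 0.847 CPM under shNr4a3 and 0.840 and 0.720 CPM under shNT, and overlapped. Pde6d, which despite its name is a carrier of prenylated proteins and has no catalytic part, was the most abundant per kilobase (11.2 under shNr4a3, 13.8 under shNT) and did not pass (26.7 and 22.1 CPM under shNr4a3, 32.2 and 28.0 CPM under shNT, edgeR adjusted p = 0.0668). Its call depended on the fit, since it passed with the replicate number as a block (adjusted p = 0.0239) and without shNr4a3 replicate 1 (0.0102).

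Genes of the photoreceptor enzyme and of cGMP-specific Pde9a were near the limit of detection. Pde6b, a catalytic subunit of the rod enzyme, had 4 and 1 counts under shNr4a3 and 12 and 16 under shNT. That is a ratio of 0.173 with an exact 95% counting interval of 0.0523 to 0.455. The gene passed the filter on low counts through shNT alone, so a difference was built into its being tested. Its call (edgeR adjusted p = 0.0316) was lost without any 1 of the 4 libraries (0.0565 to 0.211). Pde9a had 19 and 2 counts under shNr4a3 and 52 and 30 under shNT and did not pass (edgeR adjusted p = 0.0523). It passed without shNr4a3 replicate 1 (log2 fold change -4.34), without shNT replicate 2 (-2.38) and with median-ratio scaling, no filter, DESeq2, limma-voom or the replicate block, so its call depends on the fit.

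Counted by substrate, and with no test, the cAMP-specific sum was lower under shNr4a3 and the cGMP-specific sum higher. The cAMP-specific enzymes Pde4b, Pde4d, Pde7a, Pde7b and Pde8b together had 8.12 and 8.92 CPM per kilobase under shNr4a3 and 12.8 and 10.9 under shNT. Enzymes that take both substrates (Pde1a, Pde1b, Pde1c, Pde10a, Pde11a) had 11.4 and 12.6 CPM per kilobase under shNr4a3 and 12.5 and 11.8 under shNT, and the groups overlapped. The cGMP-specific enzymes were scarce, with 1.74 and 1.77 CPM per kilobase under shNr4a3 and 1.41 and 1.30 under shNT. Within that sum, Pde5a had a mean of 1.60 CPM per kilobase under shNr4a3 and 0.766 under shNT. Pde9a went the other way, with means of 0.123 and 0.494. In both of these single-substrate classes the groups did not overlap. Pde4b alone gave a mean of 4.05 of the 8.52 CPM per kilobase of the cAMP-specific sum under shNr4a3. Under shNT it gave 8.08 of 11.8, so without Pde4b the mean of the other cAMP-specific enzymes together was higher under shNr4a3. The sums leave out Pde2a, Pde3a, Pde3b, Pde4a, Pde4c and Pde8a, which were not analysed here, so they do not give the whole of either substrate's breakdown genes.

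In protein kinase A, every regulatory subunit in the table was lower and the catalytic subunit higher. All 4 genes were called, beside 60.2% of all genes tested. Prkar1a, the type I alpha regulatory subunit and the main brake on the kinase in most tissues, spans 109649405 to 109669656 of chromosome 11 (plus strand, mm10), where a start downstream of the first carries the cAMP response element printed above. It had 608 and 571 CPM under shNr4a3 and 999 and 962 CPM under shNT (log2 fold change -0.73, SE 0.0759, edgeR adjusted p = 3.37e-05). Prkar1b, the type I beta subunit typical of neurons, had 1.19 and 1.27 CPM under shNr4a3 and 8.40 and 6.58 CPM under shNT (log2 fold change -2.60, SE 0.263, edgeR adjusted p = 2.94e-05). Prkar2b, the type II beta subunit of fat and brain, had 22.3 and 19.9 CPM under shNr4a3 and 44.4 and 36.1 CPM under shNT (log2 fold change -0.93, SE 0.128, edgeR adjusted p = 2.08e-04). For all 3 the groups did not overlap.

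Prkacb, the beta catalytic subunit, had 116 and 125 CPM under shNr4a3 and 75.4 and 79.6 CPM under shNT. It was higher in both knockdown libraries, by 0.64 on the log2 scale (SE 0.0836, edgeR adjusted p = 1.58e-04). Summed per kilobase, the 3 regulatory genes stood to Prkacb at ratios of 11.1 and 9.67 under shNr4a3 and 28.6 and 25.8 under shNT. The ratio is of transcripts and leaves out Prkaca and Prkar2a, which were not analysed here. Each of the 4 kinase calls held under every alternative fit that was run.

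**Figure D3:**
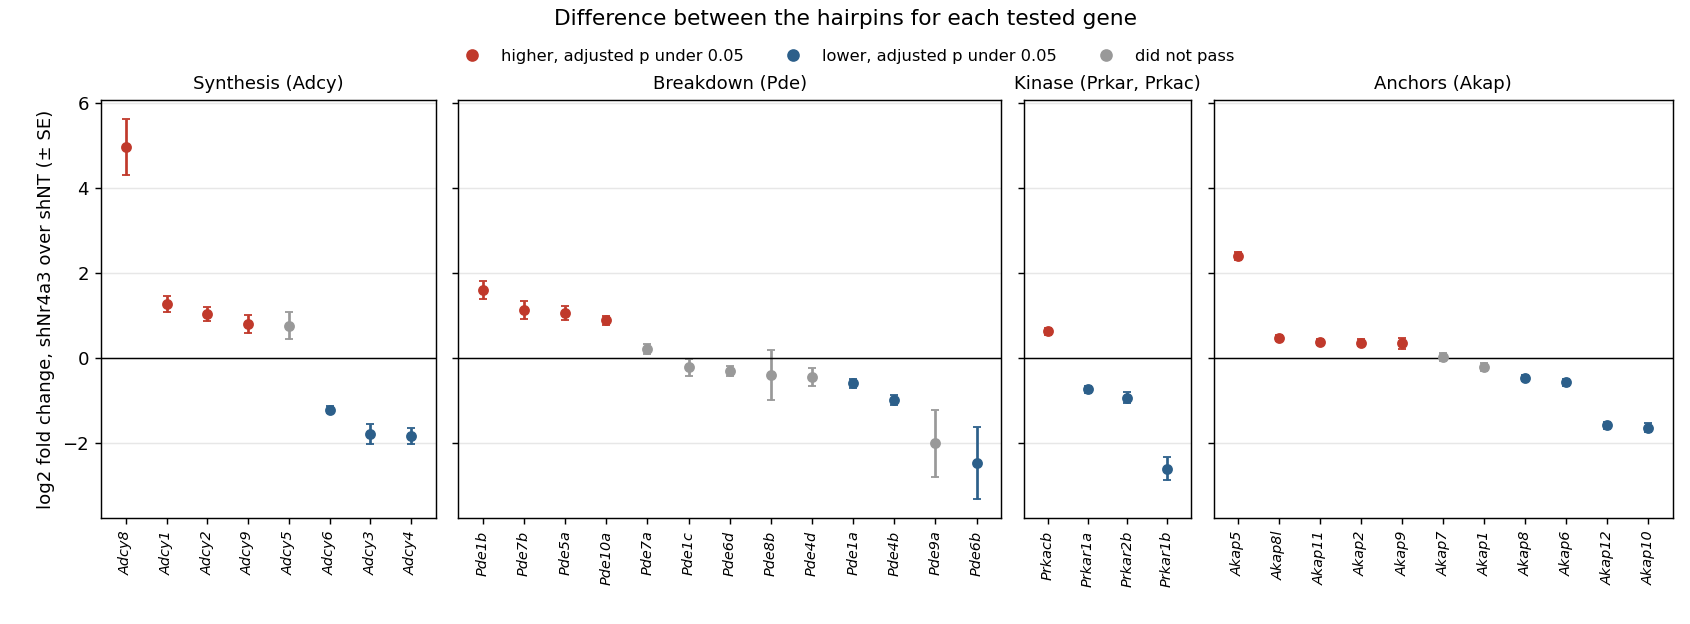
Log2 fold change of shNr4a3 over shNT with its SE for the 36 tested members, by role; red is higher, blue lower and grey not passing at an adjusted p under 0.05. Of the 4 kinase genes only Prkacb lies above 0, and Akap5 stands at 2.41 among anchors that otherwise lie between -1.64 and 0.47.

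All 11 anchoring proteins in the table were tested, and 5 were higher, 4 lower and 2 did not pass (median log2 fold change 0.03). That is 81.8% called, beside 60.2% of all genes tested. Akap3, Akap4 and Akap13 were not analysed here. Akap12, also called gravin or SSeCKS, binds the kinase and protein kinase C at the plasma membrane and beta-adrenergic receptors in other cells. The gene (chromosome 10, 4266380 to 4359470, plus strand, mm10) had the highest mean level per kilobase of all members over the 4 libraries. It fell to 1296 and 1393 CPM under shNr4a3, against 3829 and 4243 CPM under shNT (log2 fold change -1.59, SE 0.0851, edgeR adjusted p = 5.97e-07). Its share of the summed anchor level was 25.3% and 25.8% under shNr4a3 and 54.0% and 56.6% under shNT. Akap2 was the most abundant anchor per kilobase in the knockdown libraries.

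Akap5 made the largest rise among the anchors. Known as AKAP79 in humans and AKAP150 in mice, it holds protein kinase A, protein kinase C and calcineurin beside membrane calcium channels and beta-adrenergic receptors. Its locus is chromosome 12, 76324891 to 76334153, on the plus strand of mm10. Its level was 167 and 177 CPM under shNr4a3 and 31.2 and 33.6 CPM under shNT, groups set far apart (log2 fold change 2.41, SE 0.0880, edgeR adjusted p = 9.17e-08). Akap10, a mitochondrial anchor that binds both types of regulatory subunit, went the other way, with 13.4 and 14.9 CPM under shNr4a3 and 43.2 and 44.9 CPM under shNT (log2 fold change -1.64, SE 0.108, edgeR adjusted p = 2.06e-06). Its window above holds AGGTCA but not the longer NR4A site.

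The remaining anchor calls were smaller. Akap6, the anchor of the nuclear envelope in muscle cells (mAKAP), fell to 53.8 and 56.0 CPM under shNr4a3, against 80.8 and 81.7 CPM under shNT (log2 fold change -0.57, SE 0.0837, edgeR adjusted p = 3.29e-04). Akap8, a nuclear anchor that takes part in chromosome condensation, had 245 and 243 CPM under shNr4a3 and 343 and 333 CPM under shNT (log2 fold change -0.47, SE 0.0730, edgeR adjusted p = 4.43e-04). Its neighbour and paralogue Akap8l, on the same strand of chromosome 17, differed in the opposite direction. Akap8l had 293 and 286 CPM under shNr4a3 and 216 and 201 CPM under shNT (log2 fold change 0.47, SE 0.0773, edgeR adjusted p = 6.11e-04). Akap11, an anchor that also binds glycogen synthase kinase 3, had 166.0 and 166.5 CPM under shNr4a3 and 128 and 129 CPM under shNT (log2 fold change 0.38, SE 0.0743, edgeR adjusted p = 0.00189).

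Akap2 and Akap9 lost their calls when single libraries were left out. Akap2 had 2287 and 2429 CPM under shNr4a3 and 1796 and 1868 CPM under shNT (log2 fold change 0.36, SE 0.0754, edgeR adjusted p = 0.00249). Without shNT replicate 1 the call was lost (log2 fold change 0.32, edgeR adjusted p = 0.0729). Its exons overlap those of Pakap on the same strand, which holds 70853 and 77158 counts under shNr4a3 and 54457 and 60748 under shNT, beside 69049 and 74585 counts of Akap2 under shNr4a3 and 51278 and 57093 under shNT, and the reads of both rows cannot be told apart. Akap9, an anchor of the centrosome and Golgi, had 709 and 965 CPM under shNr4a3 and 646 and 670.1 CPM under shNT. Its call (log2 fold change 0.35, edgeR adjusted p = 0.0405) was lost without shNr4a3 replicate 2 (log2 fold change 0.10) and without either shNT library (0.30 and 0.37). Its exons overlap those of Cyp51 on the opposite strand, which was lower (log2 fold change -1.15). Akap7, a small anchor of the cell membrane and the sarcoplasmic reticulum, had 35.8 and 36.2 CPM under shNr4a3 and 35.2 and 35.4 CPM under shNT (log2 fold change 0.03, SE 0.0941). Akap1, which anchors the kinase to the outer mitochondrial membrane, had a log2 fold change of -0.21 (edgeR adjusted p = 0.0899). Summed over all 11, anchors had 792 and 835 CPM per kilobase under shNr4a3 and 1097 and 1160 under shNT, whereas without Akap12 the order turned, with 592 and 620 under shNr4a3 and 505 and 503 under shNT.

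Upstream of the cyclases lie the receptors. Of 28 receptors and receptor-modifying proteins coupled to the stimulatory G protein, 21 were in the table and 11 tested, of which 6 were lower, 1 higher and 4 did not pass. That is 63.6% called, near the 60.2% of all genes tested, of which 29.4% were lower. Gpr65, an acid-sensing receptor among the 6, passed the filter on low counts through shNT alone. Adcyap1r1, the receptor for the peptide PACAP, had 7.07 ± 0.682 CPM under shNr4a3 and 55.7 ± 3.13 CPM under shNT (mean ± SD, n = 2 each, log2 fold change -2.98, edgeR adjusted p = 1.38e-07). Vipr2, a receptor for VIP and PACAP, and Adora2b, an adenosine receptor, had log2 fold changes of -2.79 and -2.44 at no more than 3.88 ± 0.306 CPM (SD, n = 2). Adrb1, the main cardiac beta receptor, had 0 counts under shNr4a3 and 4 and 14 under shNT and was not tested.

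Of 5 G protein alpha subunits tested, 3 were higher and 1 lower (80.0% called, beside 60.2% of all genes tested). Gnas, the stimulatory subunit, had 1117 ± 51.1 CPM under shNr4a3 and 675 ± 12.4 CPM under shNT (SD, n = 2 each, log2 fold change 0.73, edgeR adjusted p = 3.49e-05), and overlaps Gm20721 on the opposite strand. Inhibitory subunits went both ways, with Gnai1 and Gnaz higher by 1.64 and 1.40 on the log2 scale and Gnai3, named after its value was seen, at -0.55. On the cGMP side, 2 of 5 genes tested rose and 1 fell, at 60.0% called near the share of all genes. Npr3, the receptor that clears natriuretic peptides, and Gucy1b3, the beta subunit of soluble guanylate cyclase, had log2 fold changes of 1.92 and 1.34. Gucy1a3, an alpha subunit of that cyclase named after its value was seen, did not pass (log2 fold change -0.23, edgeR adjusted p = 0.101). Npr2, the receptor cyclase for C-type natriuretic peptide, had a log2 fold change of -0.44.

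Other readers of cyclic nucleotides were also split, with 3 higher, 3 lower and 3 not passing of 9 tested. That is 66.7% called, near the 60.2% of all genes tested. Popdc3, a cAMP-binding Popeye protein, had 82 and 52 counts under shNr4a3 and 7 and 14 under shNT (log2 fold change 2.63, edgeR adjusted p = 0.00190). Cngb3, a cone channel subunit, had 2 and 4 counts under shNr4a3 and 27 and 31 under shNT, and passed the filter through shNT alone. Both cAMP-regulated exchange factors for Rap, named after their values were seen, changed in opposite directions. Rapgef3 (EPAC1), the form of most tissues, had 16.0 and 15.8 CPM under shNr4a3 and 78.1 and 80.5 CPM under shNT (log2 fold change -2.32, edgeR adjusted p = 1.49e-07). Rapgef4 (EPAC2) had 8.38 and 7.33 CPM under shNr4a3 and 1.58 and 2.68 CPM under shNT (log2 fold change 1.88, edgeR adjusted p = 3.17e-04). Prkg1, the cGMP-dependent kinase, also named after its value was seen, was lower (log2 fold change -0.85).

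Of 3 endogenous inhibitors of the catalytic subunit, 2 rose. In the list of kinase inhibitors and anchors outside the Akap symbols, 6 of 14 tested were higher, 3 lower and 5 did not pass. That is 64.3% called, near the 60.2% of all genes tested. Pkia and Pkig, peptides that block free catalytic subunits, had 132 ± 3.79 and 125 ± 12.8 CPM under shNr4a3 and 21.7 ± 1.73 and 42.3 ± 1.10 CPM under shNT (SD, n = 2 each). Their log2 fold changes were 2.61 and 1.57 (edgeR adjusted p = 9.26e-08 and 1.36e-06). The third inhibitor, Pkib, did not pass (log2 fold change 0.59, edgeR adjusted p = 0.274). Map2, a microtubule protein that binds type II regulatory subunits, had a log2 fold change of 1.95.

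Downstream, genes of the CREB branch gave no common direction. Of 7 CREB factors and coactivators tested, 2 rose, 1 fell and 4 did not pass (42.9% called, beside 60.2% of all genes tested). Crem, a paralogue of CREB that also yields the repressor ICER, had a log2 fold change of 1.34, Crtc2, a coactivator, 0.62 and Atf1, another paralogue, -0.83. Creb1 itself had 50.4 ± 0.932 CPM under shNr4a3 and 52.3 ± 0.503 CPM under shNT (SD, n = 2 each) and did not pass (edgeR adjusted p = 0.631). Of 13 genes known to be induced through CREB, 5 were higher, 4 lower and 4 did not pass (69.2% called, beside 60.2% of all genes tested). The list holds Pde4b and Pde4d again, and shares Crem and Sik1 with the CREB factors and coactivators. It also holds Nr4a1 and Nr4a2, the paralogues of the hairpin's target, which had log2 fold changes of -2.75 and 2.59. Ppargc1a passed with 22 and 28 counts under shNr4a3 and 10 and 4 under shNT (edgeR adjusted p = 0.0425), and lost its call without any 1 library. Of 4 cardiac targets of the kinase that were tested, Mybpc3, cardiac myosin-binding protein C, had a log2 fold change of 1.14 and Ryr2, the calcium release channel, 0.35. Ryr2 lost its call without shNr4a3 replicate 2 (log2 fold change 0.12) and without shNT replicate 2 (0.25). Pln, phospholamban, was barely detected (0.558 ± 0.133 CPM under shNr4a3 and 0.813 ± 0.0390 CPM under shNT, SD, n = 2 each) and did not pass.

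**Figure D4:**
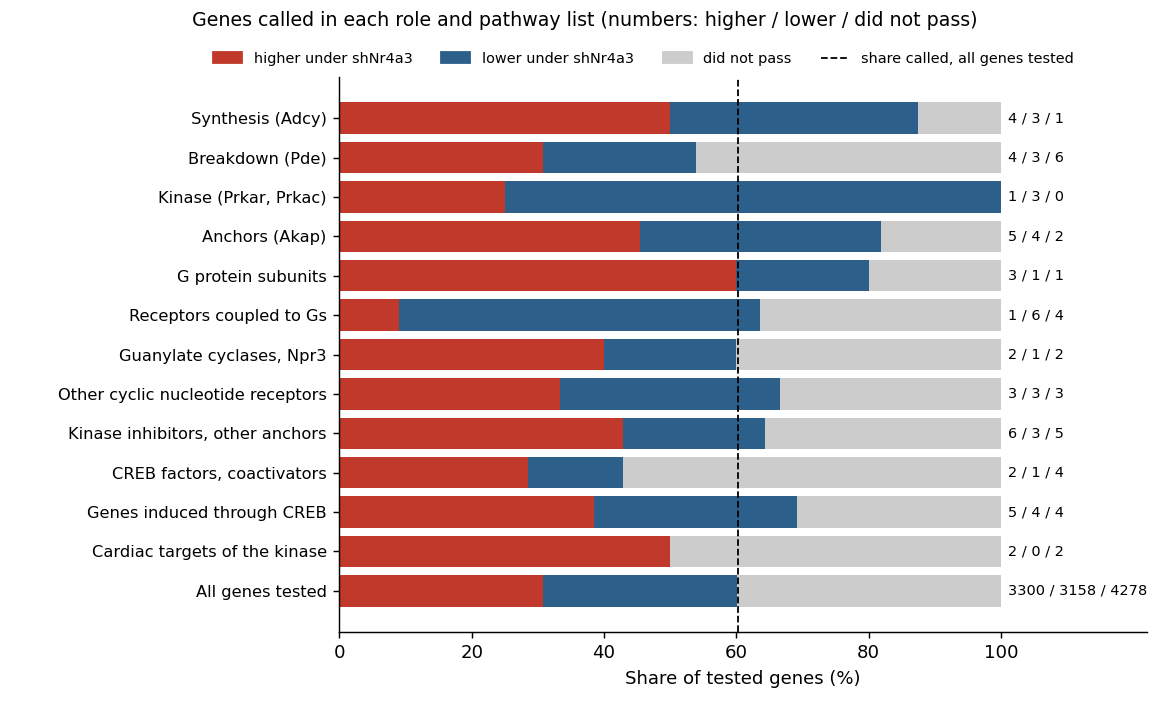
Share of tested genes that were higher (red), lower (blue) or did not pass (grey) in each role and pathway list, in percent, with the counts at the right; the dashed line is the 60.2% of all tested genes that were called. Receptors coupled to Gs have 6 lower and 1 higher, and breakdown genes (53.8%) and CREB factors (42.9%) lie below the line.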

How the data were processed

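RNA-seq was measured in 4 libraries. Per the labels' protocols, RNA was depleted of ribosomal RNA and made into stranded paired-end libraries, although the molecule label says polyA RNA. The deposited table, made by the authors, holds raw counts of reads for each gene. Per the submitters' processing notes, Trimmomatic 0.36, SAMtools and featureCounts of Subread 1.5.1 were used with mm10. Aligner, strand setting and annotation version: not given in the sources used here.

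Coordinate cells of the deposited table stop at 255 characters, so coordinates and exon overlaps come from GENCODE release M21 (GRCm38), which matched 98.1% of genes and all 40 members. Deposited lengths were used per kilobase, and 31 of 40 lay within 10% of the merged GENCODE exons. Column totals cover the listed genes only.

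The test was edgeR 4.0.16 quasi-likelihood (R 4.3.3) with TMM, filterByExpr (about 0.329 CPM in 2 libraries) and the hairpin as the only term, Benjamini-Hochberg adjusted over 10736 genes at 0.05, and checked on simulated data. SE is the log2 fold change over the root of F. CPM are after TMM scaling. Exact intervals cover counting error only. Replicates differed beyond counting noise (chi-square over its degrees of freedom 22.1 for shNr4a3 and 10.6 for shNT). Alternatives were DESeq2 1.42.0, limma-voom 3.58.1, median-ratio scaling, no filter, a replicate block, leaving out each library, and leaving out overlapping genes. Members and lists were chosen with earlier results of these data known. Up to 8 called members per role are given in full, with the most abundant per kilobase, and of each list the 3 called genes with the largest change. Some genes that this rule names are not reported here.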

Additional observations from a re-analysis of the deposited data

How the results depend on the processing

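Of the 27 member calls, 23 kept their direction and their side of the threshold under every alternative that tested them; the exceptions were Adcy9, Akap2, Akap9 and Pde6b. Members called higher numbered 12 to 15 and lower 12 to 14 when 1 library was left out, and anchors called higher numbered 3 to 5. The ranges for all genes were 2680 to 3263 higher and 2565 to 3180 lower. Requiring a log2 fold change of at least 1 left 7 members higher and 7 lower. Without genes whose exons overlap another gene's, chosen after seeing the data because deposited coordinates were cut short, 3 anchors were called higher, since Akap2 and Akap9 were then not tested. The planned version with the table's own coordinates was not run. Pde6b lost its call with no filter (adjusted p = 0.112), in DESeq2 (0.0923) and with the block (0.0522). Pde9a gained one under median-ratio scaling (0.0444), no filter (0.0392), DESeq2 (0.0356), limma-voom (0.0302) and the block (0.0124). Pde8b, never called, lay between -1.23 and 0.12 when 1 library was left out, reversing without shNr4a3 replicate 1. Replicate numbers are shared between the groups, but same-numbered libraries did not deviate together (r = 0.0229 across 10736 genes). With the replicate block, 3404 genes were higher and 3255 lower, and 14 members were called in each direction. The median log2 fold change of all genes stayed between -0.02 and 0.02. The filter on low counts left 4 members untested.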
